A study of Mus musculus with 8 samples.

Results

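The transcripts of 10 DNA replication licensing genes were profiled in mouse embryos with 1 mutant Tbx5 allele and in wild-type embryos, in the posterior second heart field (pSHF). They were Mcm2, Mcm3, Mcm4, Mcm5, Mcm6, Mcm7, Mcm10, Cdc6, Cdt1 and Gmnn, and every non-control probe that the array design assigned to these gene names was kept. This gave 13 probes of the 41174 on the array, for 10 of its 27827 gene names. Of the 13 probes, 12 were well above background on all 8 arrays and were tested, and the second probe of Mcm4 was above background on 0 of 8 arrays.

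Licensing is the step by which a cell prepares each replication origin to fire once in a cell cycle. In G1 the origin recognition complex and Cdc6 sit on the origin and, with Cdt1, load the ring of MCM proteins 2 to 7, which becomes the core of the replicative helicase in S phase. Geminin, the product of Gmnn, binds Cdt1 and blocks further loading, and Mcm10 acts later, when the loaded helicase is activated. These genes are known for high transcript levels in dividing progenitors, which the mesenchyme behind the embryonic heart contains, and many are classical targets of E2F factors.

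Each of the 8 arrays held Cy3-labelled cRNA from 1 pool of pSHF RNA at E9.5, 4 pools of genotype Tbx5-/+ and 4 of Tbx5 WT. The labels number the pools 1, 5, 6 and 7 in both groups, without giving the number of embryos in a pool, and place numbers 1 and 5 on array label 1 and numbers 6 and 7 on array label 2. The Tbx5-/+ allele was carried in the germ line, so that every cell of the embryo was heterozygous, the line was on a mixed background, and the mothers of all embryos had received gonadotropins to enlarge the litters. The tissue was a microdissected block cleared of neural tube and parted from the anterior field, with no sorting of cells. The transcript levels therefore belong to the whole block, and fewer cells of a type cannot be told apart from less RNA per cell.

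The array labelled Tbx5-/+ 1 stood apart from the other mutant arrays. On the leading principal component of all tested probes, which held 56.9% of the variance, it scored -37.2, among the wild-type arrays (-52.4 to -10), while Tbx5-/+ 5, 6 and 7 scored 26.1 to 112. The Tbx5 probe A_52_P523712 nevertheless read 9.01, 9.73, 9.16 and 8.62 on the log2 scale in Tbx5-/+ 1, 5, 6 and 7 against 10.42 to 11.56 in wild-type, so Tbx5-/+ 1 lay with its own group there. The other tested Tbx5 probe did not separate the groups (difference -0.15, SE 0.32, limma adjusted p = 0.789). Between 45.0% and 52.8% of spots were well above background on the Tbx5-/+ arrays and between 50.9% and 63.6% on the wild-type arrays. Tbx5-/+ 6 had the lowest share, 45.0%, and also lay far out on the component, at 112 against 48.7 for Tbx5-/+ 7. All results below are given with 4 arrays a group. For Mcm2, Mcm5, Mcm6, Mcm4, Gmnn and the upstream Mcm3 probe they are also given without Tbx5-/+ 1 and without Tbx5-/+ 6. The gene lists are given with all arrays only. Tbx5-/+ 1 was picked from these same values as the mutant array nearest to wild-type, so larger differences without it are no separate support.

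Promoter sequence is shown first, for genes with transcript differences of opposite sign given below, because E2F factors are the textbook regulators of this gene family. RefSeq promoters (GRCm38.p6, 250 bases before the start to 50 after it) were found for 8 of the 10 genes, all but Mcm4 and Gmnn. They were searched on both strands for the E2F-type words TTTCCCGC, TTTCGCGC, TTTGCCGC and TTTGGCGC, which can overlap each other. Of 32851 promoters, 2.26% held at least 1 such word. Of the 8 genes with a promoter, 6 did, namely Mcm3, Mcm5, Mcm6, Mcm7, Cdc6 and Cdt1, and Mcm2 and Mcm10 did not. The stretch from 180 to 31 bases before the start is printed 5′ to 3′ on the gene's strand, with the matched words in capitals, for Mcm2 (chr6:88898811-88898960, minus strand), Mcm5 (chr8:75109329-75109478, plus strand) and Mcm6 (chr1:128359736-128359885, minus strand).
Mcm2: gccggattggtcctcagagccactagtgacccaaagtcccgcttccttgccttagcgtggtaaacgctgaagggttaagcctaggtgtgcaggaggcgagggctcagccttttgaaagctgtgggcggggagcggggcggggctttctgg
Mcm5: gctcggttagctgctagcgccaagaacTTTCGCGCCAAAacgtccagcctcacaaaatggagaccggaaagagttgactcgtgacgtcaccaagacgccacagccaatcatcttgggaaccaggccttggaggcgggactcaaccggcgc
Mcm6: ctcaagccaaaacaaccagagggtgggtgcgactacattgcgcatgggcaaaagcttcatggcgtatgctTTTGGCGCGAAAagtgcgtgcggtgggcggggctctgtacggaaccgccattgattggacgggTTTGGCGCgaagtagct

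Mcm5 and Mcm6 share one arrangement in these stretches, a word on one strand overlapping a word on the other. In Mcm5 the overlapping words began 153 and 149 bases before the start, in Mcm6 they began 110 and 106 bases before it, and Mcm6 held a further word at 47 bases. The transcripts of these same genes had differences of opposite sign, -0.66 for Mcm5 (limma adjusted p = 0.246) and 0.75 for Mcm6 (limma adjusted p = 0.181). The part of E2F factors in these values was not tested. A matched word describes the letters of the window and is not a site shown to be bound. The shorter word CCAAT was found in 37.4% of all promoters, and in those of Mcm2, Mcm3, Mcm5, Mcm6, Mcm7 and Mcm10.

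Signals were background-corrected, normalised between arrays by variance stabilisation (VSN) and put on the log2 scale, and differences are Tbx5-/+ minus wild-type. The 12 probes did not move as a block. With limma and Benjamini-Hochberg adjustment over all 20030 tested probes, 0 of the 12 passed an adjusted p of 0.05, as did 0% of all probes, while SAM, the study's test, put 2 of the 12 under a q of 0.05, with 16.8% of all probes. At an unadjusted p under 0.05 there were 3 of the 12 (Mcm4 and Mcm6 with positive differences, Mcm2 with a negative one), against 21.9% of all probes, of which 3.38% were higher and 18.5% lower in Tbx5-/+. The groups overlapped for each of the 12, while they did not overlap for 9.73% of the 20020 probes measured on every array (0.744% higher and 8.98% lower in Tbx5-/+). The median difference of the 12 probes was 0.08, and 8 of them were above 0, against a median of -0.19 and 34.6% above 0 over all probes. With normexp background correction and quantile normalisation, changed together, the median of the 12 was -0.07.

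**Figure D1:**
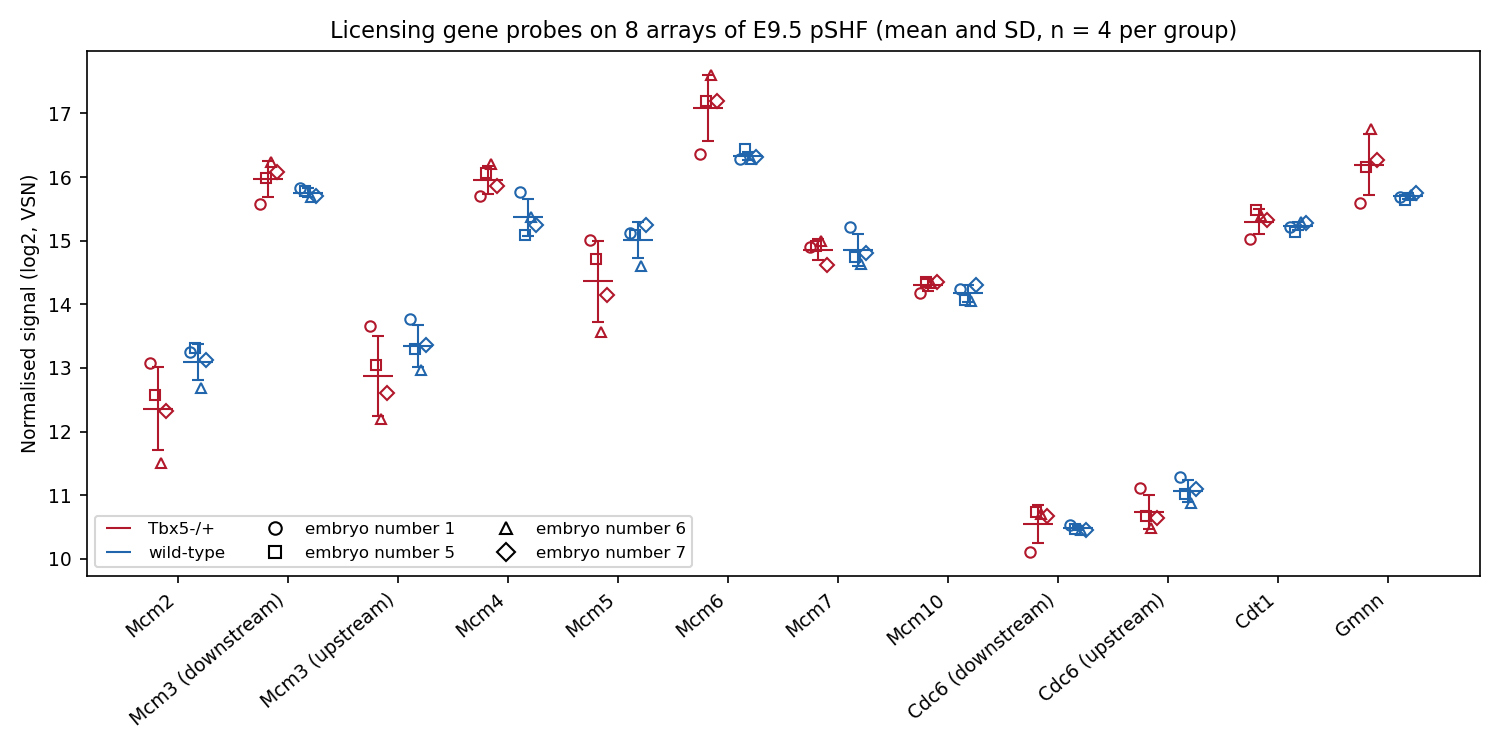
Normalised signal (log2, VSN, vertical axis) of the 12 tested licensing probes on each array, with Tbx5-/+ in red and wild-type in blue, 1 symbol for each embryo number, and bars for the mean ± SD of 4 arrays. The red points of Mcm2, Mcm5 and the upstream Mcm3 probe reach below the blue ones and those of Mcm6, Mcm4 and Gmnn above them, and the Tbx5-/+ 1 circle lies near the wild-type points in each of these.

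Mcm2 encodes a subunit of the ring whose tail also binds histones. Its probe A_51_P158210 (mm9 chr6:88833619-88833678, minus strand) read 13.07, 12.57, 11.5 and 12.32 in Tbx5-/+ 1, 5, 6 and 7 and 13.25, 13.31, 12.68 and 13.13 in the wild-type pools of the same numbers. The mutant arrays 5, 6 and 7 lay under every wild-type array, and Tbx5-/+ 1 lay among them. The means were 12.36 ± 0.65 and 13.09 ± 0.28 (SD, n = 4), a difference of -0.73 (SE 0.32, 95% interval -1.44 to -0.01), or 1.66-fold lower, with a limma adjusted p of 0.223. Without Tbx5-/+ 1 the difference was -0.96 with a limma adjusted p of 0.0467, in a fit that called 19.1% of all probes. Without Tbx5-/+ 6 it was -0.44 (limma adjusted p = 0.454).

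Mcm5, whose product forms with that of Mcm2 the gate through which the ring opens around DNA, had a like distribution. Probe A_51_P190111 (chr8:77651350-77651410, plus strand) read 15.01, 14.71, 13.56 and 14.15 in Tbx5-/+ and 15.12, 15.09, 14.6 and 15.24 in wild-type. Tbx5-/+ 6 and 7 lay under every wild-type array and Tbx5-/+ 1 and 5 within their range. The difference was -0.66 (SE 0.32, 95% interval -1.36 to 0.05; limma adjusted p = 0.246). It was -0.87 without Tbx5-/+ 1 (limma adjusted p = 0.0604) and -0.39 without Tbx5-/+ 6 (limma adjusted p = 0.522). Taking the array labels apart, the Mcm5 difference was -0.24 within array label 1 and -1.07 within array label 2, and that of Mcm2 was -0.46 and -1.

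Mcm6, the other neighbour of Mcm2 in the ring, had the largest positive difference of the 12 probes. Its probe A_51_P360492 (chr1:130228178-130228237, minus strand) read 16.36, 17.19, 17.6 and 17.2 in Tbx5-/+ and 16.29, 16.44, 16.29 and 16.32 in wild-type. Tbx5-/+ 5, 6 and 7 lay above every wild-type array, and Tbx5-/+ 1 was inside the wild-type range. The means were 17.09 ± 0.52 and 16.33 ± 0.07 (SD, n = 4), a difference of 0.75 (SE 0.26, 95% interval 0.18 to 1.33), or 1.69-fold higher, with a limma adjusted p of 0.181. It was 0.42 within array label 1 and 1.09 within array label 2. Without Tbx5-/+ 1 it was 1.00 (limma adjusted p = 0.0118), in a fit that called 19.1% of all probes. Without Tbx5-/+ 6 it was 0.58 (limma adjusted p = 0.342).

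The normalisation entered this value directly. Before it, the background-subtracted signal of the Mcm6 probe lay between 97540 and 112182 on the 4 Tbx5-/+ arrays and between 96559 and 120107 on the 4 wild-type arrays, so the separation appeared only after arrays were put on a common scale. The Mcm2 signal ran from 1437 to 11368 in Tbx5-/+ and from 7913 to 13865 in wild-type before any scaling. Lower signals before scaling were not particular to Mcm2. Cdt1, with a difference of 0.08 after VSN, ran from 21146 to 44236 in Tbx5-/+ and from 48149 to 54035 in wild-type. No spot was marked as saturated. The last 30 bases of the Mcm6 probe (chr1:130228178-130228207) are shown because they hold the polyadenylation word AATAAA, in capitals, a word typical of transcript ends that only 1 of the 13 licensing probes contained.
Mcm6 probe, last 30 bases: cactgcttttacccatgaaAATAAAacaac

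Mcm4 encodes a subunit whose tail is a substrate of the kinase that starts replication. Probe A_51_P356762 (chr16:15624372-15624431, minus strand) read 15.7, 16.07, 16.21 and 15.86 in Tbx5-/+ and 15.77, 15.09, 15.37 and 15.25 in wild-type. Tbx5-/+ 5, 6 and 7 lay above every wild-type array, and Tbx5-/+ 1 lay just below the highest of them, wild-type 1. The difference was 0.59 (SE 0.21, 95% interval 0.12 to 1.07), or 1.51-fold higher, with a limma adjusted p of 0.19. Without Tbx5-/+ 1 it was 0.68 (limma adjusted p = 0.0493), in a fit that called 19.1% of all probes. Without Tbx5-/+ 6 it was 0.51 (limma adjusted p = 0.356). The second Mcm4 probe, A_52_P231545 (chr16:15633373-15633432), was designed on a cDNA clone and not on the reference transcript, and read 4.34 to 5.66 on all arrays, never well above background.

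Mcm7, which joins Mcm4 and Mcm6 in the stable core of the helicase, had nearly equal means. Probe A_51_P165704 (chr5:138605925-138605984, minus strand) read 14.9, 14.91, 15 and 14.62 in Tbx5-/+ and 15.21, 14.74, 14.64 and 14.8 in wild-type, and the arrays of both groups were mixed in order. The difference was 0.01 with a 95% interval of -0.42 to 0.45, so that a change of under 0.42 in either direction could not be told from none with these arrays. Its sign turned to negative under normexp and quantile normalisation (-0.11), in the deposited values (-0.008) and within array label 1 (-0.067).

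The MCM genes therefore spread apart on some mutant arrays. With each gene set to its wild-type mean and represented by its brightest probe, the MCM2 to 7 genes covered 0.50, 1.38, 2.85 and 1.73 log2 units from the lowest to the highest in Tbx5-/+ 1, 5, 6 and 7, and 0.45, 0.49, 0.42 and 0.35 in wild-type 1, 5, 6 and 7. Tbx5-/+ 1 was close to the wild-type arrays, and Tbx5-/+ 6 was the widest. On Tbx5-/+ 6, the deviation was -1.59 for Mcm2 and -1.45 for Mcm5, and 1.26 for Mcm6 and 0.84 for Mcm4. This spread was looked at after the single values were known and has no test. Each wild-type array is part of the mean it is set against, which by itself narrows the wild-type spread. The mutant arrays had the same order on the leading principal component of all tested probes. The spread of other gene sets was not computed, so nothing here is particular to the MCM genes. A scale factor common to an array moves all 6 genes alike and does not enter the spread, but an effect of signal level does, and its values are given below.

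**Figure D2:**
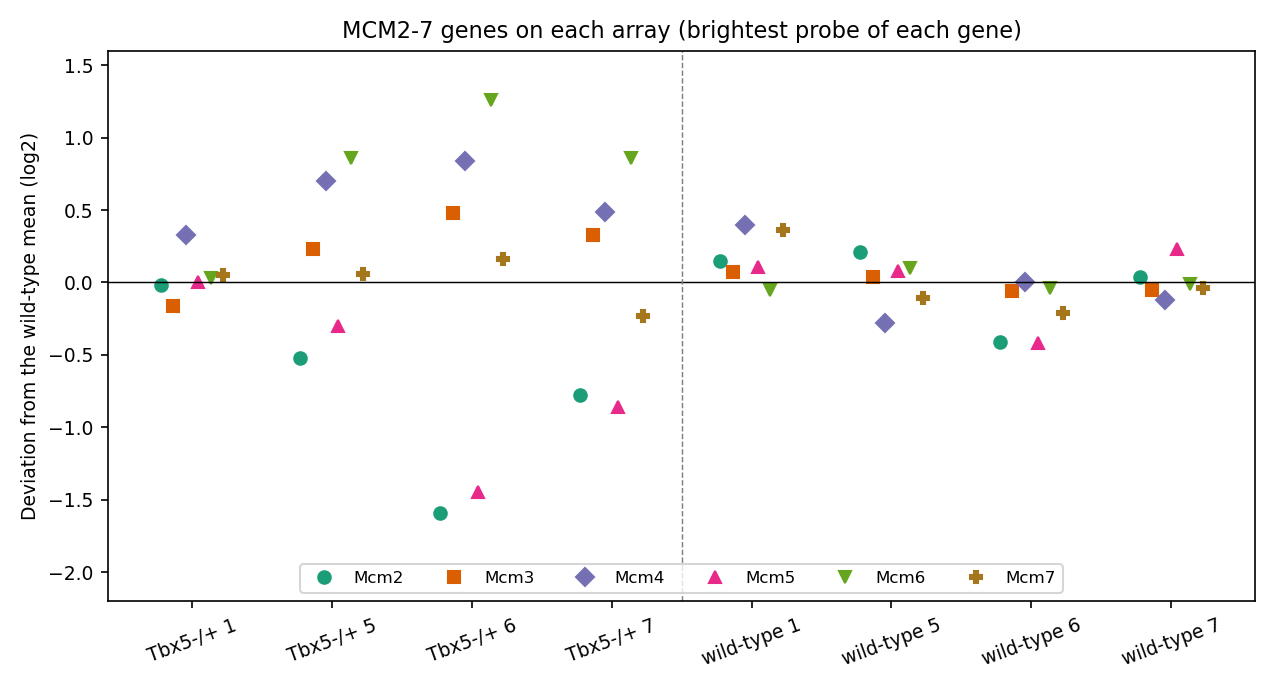
Deviation of each MCM2 to 7 gene from its wild-type mean (log2, vertical axis) on each of the 8 arrays (horizontal axis), 1 symbol a gene, with the groups parted by the dashed line. The 6 genes cover 1.38 to 2.85 log2 units in Tbx5-/+ 5, 6 and 7 and 0.35 to 0.50 in Tbx5-/+ 1 and the wild-type arrays.

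Mcm3 was measured by a pair of probes, and their differences had opposite signs. The downstream probe A_51_P324934 (chr1:20793119-20793178, minus strand) read 15.58, 15.98, 16.23 and 16.08 in Tbx5-/+ and 15.82, 15.78, 15.68 and 15.7 in wild-type, a difference of 0.22 (SE 0.19; limma adjusted p = 0.485). The upstream probe A_52_P364776 read 13.66, 13.04, 12.19 and 12.6 in Tbx5-/+ and 13.77, 13.3, 12.97 and 13.36 in wild-type, a difference of -0.48 (SE 0.32; limma adjusted p = 0.366). This upstream difference was -0.74 without Tbx5-/+ 1 (limma adjusted p = 0.0691) and -0.25 without Tbx5-/+ 6 (limma adjusted p = 0.723). Tbx5-/+ 6, the highest of all arrays at the downstream probe, was the lowest at the upstream one. Levels of different probes are not comparable, but the gap between 2 probes of a gene can be followed from array to array.

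The sequences show what the Mcm3 probes read. The 60 bases of the upstream probe span chr1:20795363-20795879 on mm9, 517 bases of genome, so that the probe crosses a splice junction, and of the reading frames 2 were free of stop codons. The first 30 bases of the downstream probe lie at chr1:20793149-20793178, nearer to the end of the transcript. This probe was designed on a cDNA clone and the upstream one on the reference transcript. Whether both read the same transcript was not tested.
Mcm3 upstream probe: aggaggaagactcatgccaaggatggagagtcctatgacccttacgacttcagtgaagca
Mcm3 downstream probe, first 30 bases: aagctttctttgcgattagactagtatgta

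The downstream minus upstream gap of Mcm3 was 1.92, 2.94, 4.03 and 3.48 in Tbx5-/+ 1, 5, 6 and 7 and 2.05, 2.48, 2.72 and 2.33 in wild-type. Tbx5-/+ 5, 6 and 7 had wider gaps than any wild-type array and Tbx5-/+ 1 had the narrowest of all. The gap was wider over the array as a whole, too. Over 4611 genes with at least 2 tested probes on 1 strand, its median was 1.32, 1.65, 1.78 and 1.7 in Tbx5-/+ and 1.3, 1.38, 1.45 and 1.37 in wild-type, and the gap was wider in Tbx5-/+ for 68.4% of these genes. The Mcm3 gap differed by 0.70 between the group means, and 19.6% of the genes had a greater difference. The gap over all genes thus moved with that of Mcm3, and its part in the Mcm3 values was not tested.

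Cdc6, the loader that recruits Cdt1 and the MCM ring to the origin, also had a pair of tested probes, 60 bases each. The downstream probe A_52_P219473 (chr11:98785169-98785228, plus strand) read 10.11, 10.73, 10.71 and 10.67 in Tbx5-/+ and 10.53, 10.47, 10.45 and 10.45 in wild-type, a difference of 0.08 (SE 0.19; limma adjusted p = 0.823). The upstream probe A_52_P371108 (chr11:98782573-98782632) read 11.11, 10.67, 10.48 and 10.64 in Tbx5-/+ and 11.29, 11.01, 10.87 and 11.09 in wild-type, a difference of -0.34 (SE 0.20; limma adjusted p = 0.317). Tbx5-/+ 5, 6 and 7 were above all wild-type arrays at the downstream probe and below all of them at the upstream probe. Their gap was -1, 0.05, 0.24 and 0.02 in Tbx5-/+ 1, 5, 6 and 7 and -0.76 to -0.42 in wild-type, a difference of 0.41 that 34.4% of the 4611 genes exceeded. No direction for the Cdc6 transcript follows from probes that part in this way.

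**Figure D3:**
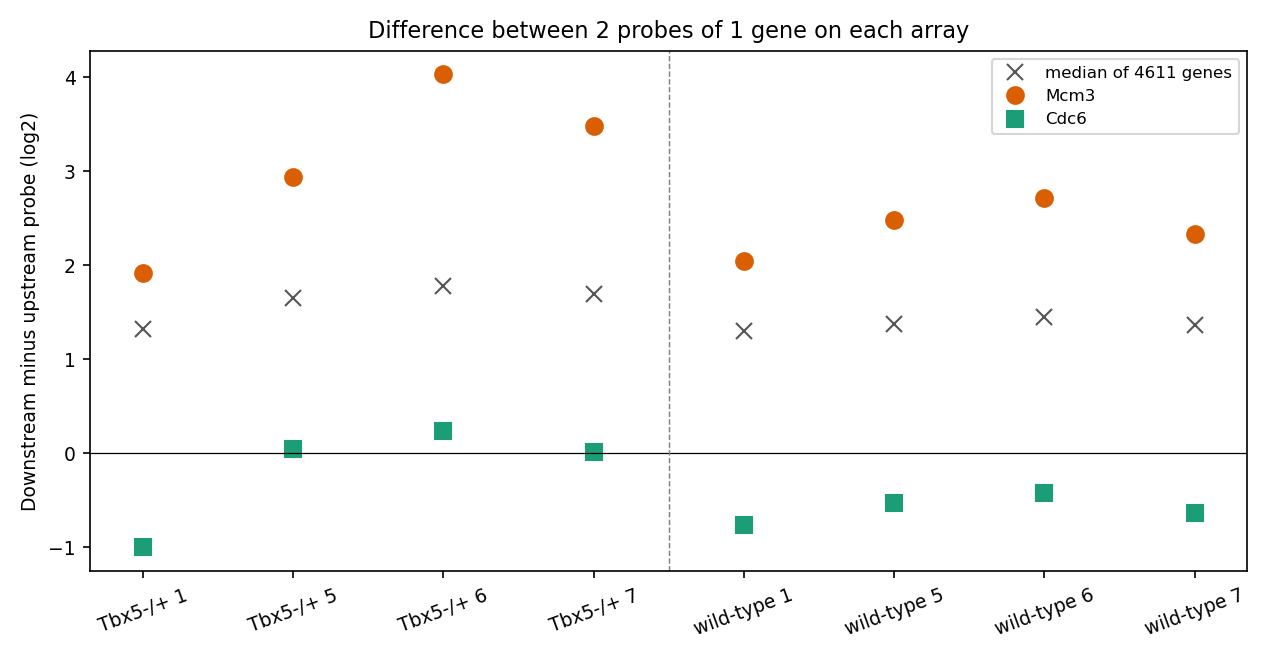
Downstream minus upstream probe signal (log2, vertical axis) of Mcm3, Cdc6 and the median of 4611 genes on each of the 8 arrays (horizontal axis). The differences between arrays carry information and the heights of the 3 symbols do not. All of them are higher in Tbx5-/+ 5, 6 and 7 than in Tbx5-/+ 1 and wild-type.

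Cdt1, which brings the MCM ring to the origin and is destroyed after licensing, showed a difference of 0.08 with a 95% interval of -0.31 to 0.47 (A_51_P133612, chr8:125096893-125096952, plus strand; limma adjusted p = 0.804). It read 15.03, 15.48, 15.39 and 15.32 in Tbx5-/+ and 15.21, 15.13, 15.29 and 15.28 in wild-type. Tbx5-/+ 1 was the lowest array and the other mutant arrays were just above all wild-type arrays.

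Gmnn, the Cdt1 inhibitor present from S phase to mitosis, read 15.59, 16.16, 16.75 and 16.27 in Tbx5-/+ and 15.69, 15.64, 15.72 and 15.75 in wild-type (A_51_P166155, chr13:24843852-24843911, minus strand). Tbx5-/+ 5, 6 and 7 were above every wild-type array and Tbx5-/+ 1 below every one. Before any scaling, Tbx5-/+ 5, 6 and 7 read 54733, 54394 and 53832, under every wild-type array (64971 to 75656). Their place above wild-type therefore appeared only after normalisation. The difference after it was 0.50 (SE 0.24, 95% interval -0.05 to 1.04), or 1.41-fold higher, with limma adjusted p = 0.253. Without Tbx5-/+ 1 it was 0.70 with a limma adjusted p of 0.0369, in a fit that called 19.1% of all probes. Without Tbx5-/+ 6 it was 0.31 (limma adjusted p = 0.53). On single arrays the Gmnn minus Cdt1 value was 0.56, 0.68, 1.36 and 0.96 in Tbx5-/+ 1, 5, 6 and 7 and 0.43 to 0.50 in wild-type.

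Mcm10, which acts with the activated helicase at the fork, read 14.17, 14.35, 14.34 and 14.35 in Tbx5-/+ and 14.24, 14.06, 14.05 and 14.31 in wild-type (A_51_P212682, chr2:4911845-4911904, minus strand). Its difference was 0.13 (SE 0.17, 95% interval -0.24 to 0.51; limma adjusted p = 0.632). Tbx5-/+ 5, 6 and 7 were close together, just above the highest wild-type array, and Tbx5-/+ 1 lay among the wild-type arrays.

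Signal level moved with the difference over the whole array, and the licensing probes differ widely in level. Among probes with a mean level of 9 to 10 the median difference was -0.32, at 12 to 13 it was -0.07, at 14 to 15 it was 0.08, at 15 to 16 it was 0.25 (396 probes) and at 16 to 17, the level of Mcm6, it was 0.33 (201 probes, 81.6% of them above 0). Above 17 it was 0.56 (84 probes). The Mcm6 value of 0.75 was read beside that 0.33 and stayed inside the 5th to 95th percentile of its level, -0.21 to 0.77. Mcm4 (0.59) and Gmnn (0.50) lay in the level with a median of 0.25 and a 95th percentile of 0.77, and the downstream Mcm3 probe (0.22) and Cdt1 (0.08) in the same level lay under its median. Mcm2 (-0.73) was inside the range of its level, -0.96 to 0.63, and Mcm5 (-0.66) was near the lower end of its own, -0.68 to 0.69.

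Normexp background correction with quantile normalisation, a setting that changed both steps together, left medians between -0.02 and 0.03 at every level above 8. It gave 0.39 for Mcm6, 0.35 for Mcm4, 0.24 for Gmnn, -0.62 for Mcm2, -0.74 for Mcm5 and -0.41 for the upstream Mcm3 probe. The values of Mcm6, Mcm4 and Gmnn were smaller than under VSN and that of Mcm5 larger in size, and 1 of the 12 probes had an unadjusted limma p under 0.05, against 18.9% of all probes in that fit. The part of the level-dependent shift in the VSN values of single genes was not tested.

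**Figure D4:**
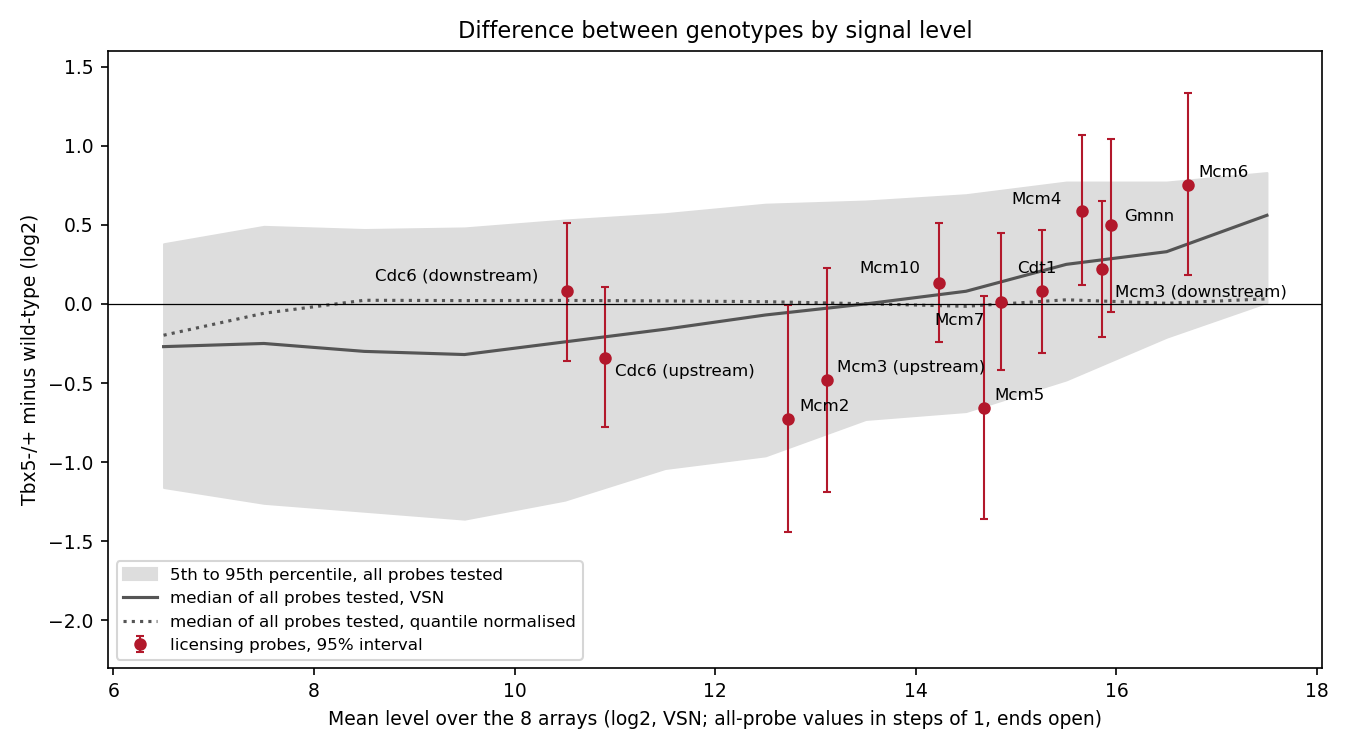
Difference between the genotypes (Tbx5-/+ minus wild-type, log2, vertical axis) of the 12 licensing probes with 95% intervals against their mean level (log2, horizontal axis). The band and solid line give the 5th to 95th percentile and the median of all 20030 tested probes by level. The dotted line gives the median after normexp background correction and quantile normalisation. The solid line climbs from -0.32 at level 9 to 10 to 0.33 at 16 to 17 and 0.56 above 17. Mcm6, Mcm4 and Gmnn lie above it while Mcm2, Mcm5 and the upstream Mcm3 probe lie below it.

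By the check described with the processing, the pools were also paired by embryo number, and the mutant minus wild-type value was taken within each number. For Mcm2 it was -0.18, -0.74, -1.18 and -0.82 in numbers 1, 5, 6 and 7, and for Mcm5 it was -0.11, -0.38, -1.04 and -1.10. For Mcm6 it was 0.07, 0.76, 1.31 and 0.88, and for Gmnn -0.11, 0.52, 1.04 and 0.53. Number 1 was the smallest in size in each of these 4 genes, and the largest was number 6 for Mcm2, Mcm6 and Gmnn and number 7 for Mcm5. With the embryo number as a replicate block, 5 of the 12 probes had an unadjusted limma p under 0.05 in place of 3, while the share of all probes was 34.9% in place of 21.9%. None of the 12 (0) passed the adjusted threshold, which 11.1% of all probes did (Mcm2 adjusted p = 0.0581, Mcm6 adjusted p = 0.0652).

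The other genes of the replication pathway were taken from lists written down for this purpose and are given by their brightest tested probe. With limma and no block, 0 genes of any list passed the adjusted threshold, as did 0% of all probes. The lists were not read in the fit with the replicate block. Counts at an unadjusted p under 0.05 are to be read beside the 3.38% of all tested probes that were higher and the 18.5% that were lower in Tbx5-/+ at that p. The 6 subunits of the origin recognition complex, which marks origins for licensing, had a median difference of 0.11, and 0 of 6 had an unadjusted p under 0.05, against 21.9% of all probes. Their differences ran from -0.49 for Orc5 (SE 0.27) to 0.35 for Orc3 (SE 0.23), but the 4 probes of Orc3 ranged from -1.77 to 0.38.

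Of 18 tested genes of helicase activation, 2 had an unadjusted p under 0.05 with a positive and 4 with a negative difference (3.38% and 18.5% of all probes), and the median was -0.22. Timeless, of the fork protection complex, had -0.59 (SE 0.17; limma adjusted p = 0.14) with no overlap between the groups, and -1.95 at its other tested probe. Its partner Tipin had 0.85 (SE 0.29; limma adjusted p = 0.179). Mcmbp, which binds MCM subunits, had 1.43 at its brightest probe and -0.56 at its lowest. Of 11 tested genes that degrade Cdt1 or control geminin, 1 had a positive and 2 a negative difference at that p, the latter near the 18.5% of all probes. Rbx1, the ring-finger subunit of cullin ligases, had 0.72 (SE 0.29) at its brightest probe, with its 3 tested probes between 0.12 and 0.72. Skp2, an F-box protein that targets Cdt1, had -0.62 (SE 0.27), and Ddb1, the adaptor of the CUL4 ligase, had -1.23 (SE 0.53).

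Among 24 replication fork genes, 2 had a positive and 1 a negative difference at an unadjusted p under 0.05, together a smaller share than the 21.9% of all probes, and the median was 0.08. The largest was Rpa3, a subunit of the protein that coats single-stranded DNA, at 1.65 (SE 0.43; limma adjusted p = 0.115). Of the polymerase delta subunits, Pold3 had 0.93 (SE 0.31) at its brightest probe, with its 3 tested probes between 0 and 0.93, and Pold1 had -0.72 (SE 0.30). Of 10 nucleotide supply genes, 2 had positive differences at that p, against 3.38% of all probes and 13.4% of probes at a level of 15 to 16, and Dut, which clears dUTP, showed 0.62 (SE 0.22; limma adjusted p = 0.193) with groups that did not overlap. Ctps, which makes CTP, had 0.74 (SE 0.28).

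Of 20 mitosis genes, 0 had a positive and 4 a negative difference at an unadjusted p under 0.05, close to the 18.5% of all probes that were lower, and the median was -0.06. The spindle checkpoint kinase Ttk had -0.66 (SE 0.19; limma adjusted p = 0.142), the spindle motor Kif11 -0.87 (SE 0.32) and the topoisomerase Top2a -0.67 (SE 0.25). The medians of all these lists lay between -0.22 and 0.12, against -0.19 for all probes, so that the pathway lists, like the licensing genes, held members on both sides.

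**Figure D5:**
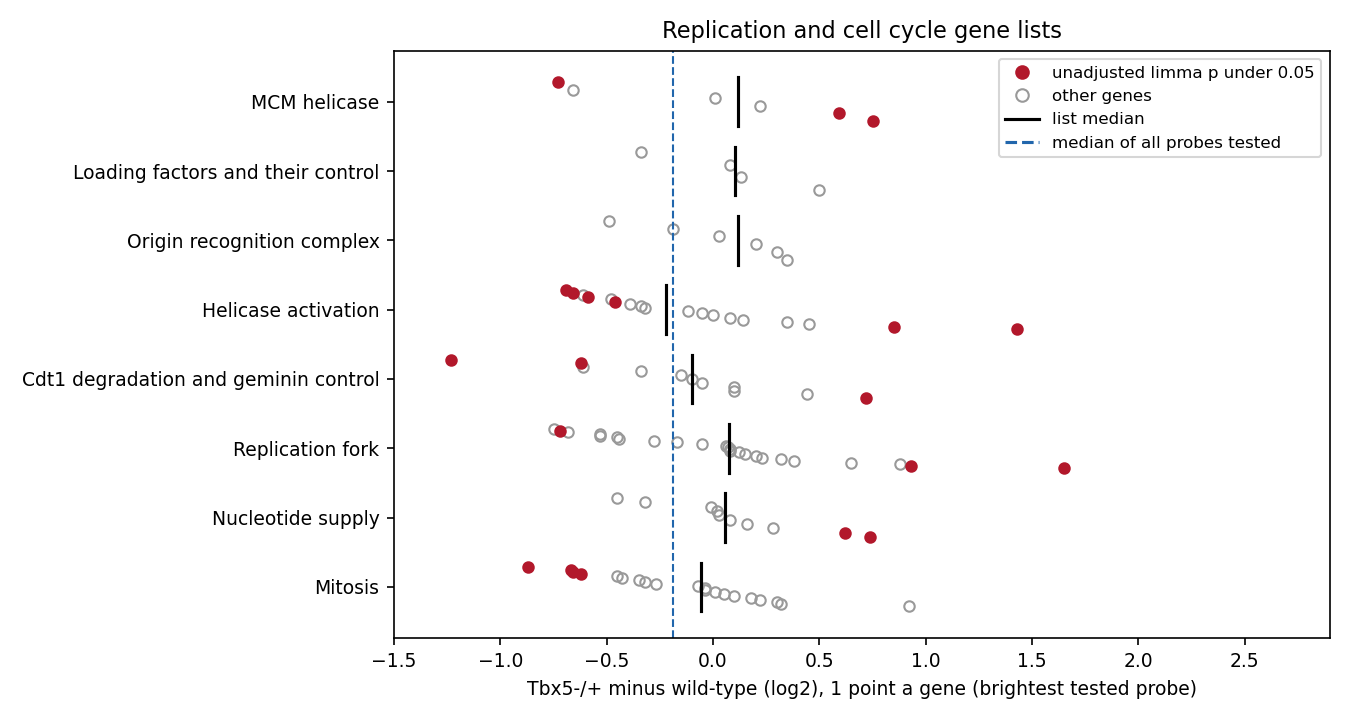
Tbx5-/+ minus wild-type (log2, horizontal axis) for the tested genes of 8 replication and cell cycle lists (vertical axis), 1 point a gene at its brightest probe. Red points have an unadjusted limma p under 0.05, black lines are list medians and the dashed line is the median of all tested probes, -0.19. List medians lie between -0.22 and 0.12, and of the lists with red points, nucleotide supply and mitosis have them all on one side.

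Markers of other cell types in the block were read on the same arrays as means over each list. The pSHF list ranged from 9.79 to 10.88 in Tbx5-/+ and from 10.87 to 11.24 in wild-type, with Tbx5 itself among its 9 tested genes and Nr2f1 not tested. The endothelium list (10 of 10 genes) ranged from 10.12 to 10.77 against 10.94 to 11.2, and did not overlap. Its single genes ran from -1.12 for Kdr to 0.21 for Emcn, with a median of -0.63. Of the 10, 4 were lower without overlap, against 8.98% of all probes. Among all probes at a level of 10 to 11 the median difference was -0.24. The cardiomyocyte (13.69 to 14.97 against 14.31 to 15.01), foregut endoderm (10.93 to 11.33 against 11.1 to 11.56), primitive erythrocyte (11.68 to 14.03 against 11.74 to 13.81), neural tube (8.26 to 9.06 against 7.23 to 10.03) and liver bud lists (7.66 to 10.09 against 8.35 to 10.97) overlapped. Among the genes not tested, because neither group had a probe of theirs detected on each of its 4 arrays, were Sox1, Neurod1, Olig2 and Pax3 of the neural tube list, and Ttr, Apoa1 and Apob of the liver bud list. No probe carried the name Sox3. The part of cell composition in the licensing values was not tested.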

How the data were processed

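The authors deposited scanner intensities (spot mean signals with local backgrounds, Agilent Feature Extraction 10.5.1.1) of 60-base probes annotated on mm9. They also deposited log2 values of 22405 probes, which the authors had normalised by VSN. From the scanner files, the median background was subtracted, 1115 outlier spots were left out, spots of a probe were averaged and VSN was programmed in R 4.3.3 (7 iterations, 90% of probes kept). The result correlated with the deposited values at r of at least 0.9999 on every array. Probes detected well above background in 1 or both groups, on each of its 4 arrays, were tested with limma 3.58.1 (two-sided, no covariate, Benjamini-Hochberg over 20030 probes). The study used SAM, an alternative here. Fits and VSN were tested on simulated data. The number of arrays limits the precision, and nothing in the labels says how separate the pools were, so p-values measure the spread between these pools.

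All licensing probes are named. From each other list at most 3 genes with the smallest p are named. The members and lists were chosen with earlier results of these data known. Same-numbered arrays deviated together from their group means (correlations 0.44, 0.40, 0.59 and 0.14 across probes), which is the only source of the pairing. Tbx5-/+ 7 correlated best with wild-type 6 and the others with their own number. Promoters are from RefSeq (GRCm38.p6).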

Additional observations from a re-analysis of the deposited data

Results flagged for a closer look

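Of 26 groups of 4 arrays (13 probes in 2 genotypes), 2 held an array far from the other 3, judged by its gap to the nearest array as a share of the group's range, and chance gives such a gap in about 1 of 20 groups. Both were Tbx5-/+ 1. For Mcm10 the share was 0.929, with 14.17 in Tbx5-/+ 1 against 14.34 to 14.35 in the other mutant arrays. For the downstream Cdc6 probe A_52_P219473 it was 0.905, with 10.11 against 10.67 to 10.73.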

How the results depend on the processing

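Over 238 single-probe values recomputed under the alternatives, 218 kept their direction and side of the threshold, 14 turned sign and 6 newly passed. Mcm2, Mcm5 and the upstream Mcm3 probe stayed below 0, and Mcm4, Mcm6, Mcm10 and Gmnn above 0, in every alternative run: Mcm2 -1 to -0.39, Mcm5 -1.07 to -0.24, Mcm6 0.39 to 1.11, Mcm4 0.35 to 0.97, Gmnn 0.21 to 0.87. SAM called 2 licensing probes (Mcm4 and Mcm6) at q under 0.05, with 16.8% of all probes. Leaving out 1 array called 0 to 4. The 4, without Tbx5-/+ 1, in a fit that called 19.1% of all probes, were Mcm2 (-0.96), Mcm4 (0.68), Mcm6 (1.00) and Gmnn (0.70). The count at unadjusted p under 0.05, 3 as reported (21.9% of all probes), is given with the share of all probes in the same fit. It was 6 under 75th percentile scaling (24.2%), 1 under normexp and quantile normalisation (18.9%), 5 with arrays centred on their median (22.9%), 0 within array label 1 (2.45%) and 6 within array label 2 (33.6%). With 1 array left out it was 1 to 8, with 1 without wild-type 5 (12.3%) or wild-type 7 (11.1%) and 8 without Tbx5-/+ 1 (41.8%). With the replicate block it was 5 (34.9%), and the block changed no adjusted call of a licensing probe. The median difference, 0.08 with 8 of 12 probes above 0, was 0.44 under percentile scaling, 0.40 with centred arrays and 0.02 to 0.17 with 1 array left out. It turned to -0.07 under normexp and quantile normalisation and -0.04 within array label 1, each with 5 of 12 above 0.

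Signs turned for the upstream Cdc6 probe under percentile scaling (0.023). They turned for the downstream Mcm3 probe (-0.036), Mcm7 (-0.11) and Cdt1 (-0.12) under normexp and quantile normalisation, and for Mcm7 in the deposited values (-0.008). Within array label 1 they turned for the downstream Mcm3 probe (-0.023), Mcm7 (-0.067) and the downstream Cdc6 probe (-0.08). Mcm7 also turned with 1 array left out (-0.057 to -0.002), except without Tbx5-/+ 7 (0.092) or wild-type 1 (0.13). The cause was not tested. The median of all probes was 0.10 under percentile scaling, 0.13 with centred arrays and -0.016 under normexp and quantile normalisation. The share of lower values among probes at unadjusted p under 0.05 was 84.6% as reported, and 35.6%, 29% and 50.2% in that order. The number of arrays limits all of these values.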
